A study of Mus musculus with 8 samples.

Results

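The genes described here are 10 transcription factors and transcriptional regulators of the astrocyte lineage: Sox9, Sox2, Nfia, Nfib, Nfix, Lhx2, Dbx2, Id3, Hes5 and Rfx4. The rule that chose them gives their names and uses no measured value, though earlier results of these data were known, and all 10 were found among the 26711 features of the count matrix. The data are single-nucleus RNA-seq of primary visual cortex (V1) from mice 21 days of age, in 8 libraries of 4 groups with 2 mice each, 1 male and 1 female. All mice carried loxP-flanked alleles of Nr3c1, which encodes the glucocorticoid receptor (GR), on both chromosomes (GRfl/fl), and all were injected at birth with an adeno-associated virus (AAV2/5) in which the astrocyte promoter GfaABC1D drove the transgene. In GR-KO mice the virus encoded Cre, and in GR-Con mice it encoded ΔCre, a truncated and inactive form, in both cases together with membrane-bound EGFP. Rearing was either under a normal light cycle (NR) or in darkness (DR), so that each genotype was present under each rearing. The promoter is meant to limit Cre to astrocytes that received the virus, and nuclei were sorted for the DNA dye DRAQ5 and against GFP signal.

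Astrocytes arise from radial glia late in cortical development, and the factors listed here act in that step or mark its products. Sox9 and the nuclear factor I proteins (Nfia, Nfib and Nfix) switch on glial genes in progenitors, Sox2 and Lhx2 maintain progenitor and glial states, and Hes5 and Id3 are targets of Notch and BMP signalling, pathways that hold back neuronal genes. Dbx2 is a homeodomain protein and Rfx4 a winged-helix protein of the neural tube and of glia. Several of them keep working in mature astrocytes, and several are also used by neurons of particular layers.

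The count matrix held 102330 nuclei in 20 cell types named by the authors, of which 9486 were astrocytes, 924 to 1794 per library. Each library held 9517 to 15161 nuclei and 168632129 to 288774016 unique molecular identifiers (UMIs), with 5462791 to 11585703 of these in astrocytes. UMIs were summed per library and cell type and are given as CPM, the count scaled to a common total of that sum, so that the mouse was the unit of replication. Of 33 marker genes, 33 were highest in the cell type they mark; the astrocyte markers among them were Aqp4, Aldh1l1, Slc1a3 and Gja1. Some libraries departed from the rest. The NR GR-Con male, NR GR-KO male and DR GR-Con female libraries held 2, 4 and 4 microglia against 573 to 948 in the others, and the last of these also held 5 endothelial and 3 vascular leptomeningeal (VLMC) nuclei. Of 101098 barcodes, 1220 occurred in more than 1 library. Cre UMIs were 0 in all 4 GR-Con libraries and 1054, 233, 190 and 281 in the NR GR-KO male and female and the DR GR-KO male and female. Of these, 86, 48, 57 and 43 lay in astrocytes, so that most Cre UMIs were counted in nuclei of other types, above all in the NR GR-KO male. Nr3c1 itself, counted at its 3′ end, was not lower in astrocytes of GR-KO mice: it stood at 231 and 221 CPM in NR GR-Con, 284 and 268 in NR GR-KO, 263 and 207 in DR GR-Con, and in DR GR-KO at 274 and 275. Such counts do not show whether an internal part of the gene was deleted, and the floxed exon is not given in the sources used here.

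The members lie at separate places in the genome (GRCm38, GENCODE vM21), with Nfia, Nfib, Id3 and Hes5 on chromosome 4. Sox9 spans chr11:112782224-112787760, Nfia chr4:97772734-98118874, Nfib chr4:82290173-82705750, Id3 chr4:136143497-136145755 and Hes5 chr4:154960923-154962371. Lhx2 spans chr2:38339281-38369733, Dbx2 chr15:95623563-95655960 and Rfx4 chr10:84756062-84906538. Sox2 (chr3:34650405-34652461) sits inside the longer noncoding gene Sox2ot on the same strand. Nfix (chr8:84699876-84800344), Nfia, Nfib, Lhx2 and Hes5 overlap genes of the opposite strand, so that reads of a partner could enter a count where strand was not used. Nfib also overlaps Gm11267 on its own strand.

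Hes5 and Id3 were the members that passed the test in astrocytes, and their promoters are shown for that reason. Each line gives the 250 bases before the RefSeq start on GRCm38.p6, plus strand, for Hes5 chr4:154960673-154960922 and for Id3 chr4:136143572-136143821. The GENCODE span of Id3 starts earlier, at 136143497, so by that annotation the Id3 stretch lies inside the gene. Capitals mark TGGGAA, the core recognised by the Notch effector RBPJ, on either strand, and Id3 has none.
Hes5: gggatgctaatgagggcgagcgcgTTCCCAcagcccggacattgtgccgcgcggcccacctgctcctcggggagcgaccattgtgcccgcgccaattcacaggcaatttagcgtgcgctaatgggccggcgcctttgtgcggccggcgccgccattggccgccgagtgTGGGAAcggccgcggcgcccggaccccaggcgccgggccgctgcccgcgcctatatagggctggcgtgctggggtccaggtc
Id3: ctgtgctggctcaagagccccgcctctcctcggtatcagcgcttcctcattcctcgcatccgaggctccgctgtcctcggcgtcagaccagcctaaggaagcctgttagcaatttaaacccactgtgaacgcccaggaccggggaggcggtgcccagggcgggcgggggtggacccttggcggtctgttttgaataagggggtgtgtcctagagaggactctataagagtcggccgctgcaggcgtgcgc
The Hes5 promoter held 2 copies, at positions -226 to -221 on the minus strand and -82 to -77 on the plus strand, counted from the start. Lhx2 also held 1 copy in each of its promoters, at -230 to -225 and at -9 to -4, both on the plus strand. At least 1 copy was present in 21.6% of 32851 promoters of the same length and at least 2 in 2.77%. The full palindromic consensus of the glucocorticoid response element, searched on both strands, was in 0 of 13 promoters of the 8 members with an entry. Only 3 of all 32851 promoters (0.009%) held it, so this search could not tell whether the members have such elements. The shorter site TGTTCT, 1 side of that palindrome, matched in 1 Nfix promoter, and 16.1% of all promoters held it. These are matches of letters only.

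In the resting picture across cell types, astrocytes had the highest mean level of 7 of the 10 members, which is a description with no test. Rfx4 was at 369 ± 34.8 CPM (SD, n = 8 libraries) in astrocytes and at 88.0 ± 9.92 in oligodendrocyte progenitor cells (OPCs), the next type, with 1.92 in excitatory neurons. Dbx2 was at 147 ± 17.4 in astrocytes and at 10.9 ± 12.5 in VLMCs (n = 7), 13.4-fold lower. Sox9 stood at 74.8 ± 8.27 in astrocytes against 10.1 ± 4.19 in VLMCs. For these 3 genes no library of the next type reached the lowest astrocyte library. Hes5 was at 74.9 ± 22.7 in astrocytes and 38.7 ± 10.2 in OPCs, and these ranges did not overlap either, with 52.2 CPM as the lowest astrocyte value and 49.6 as the highest OPC value.

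**Figure D1:**
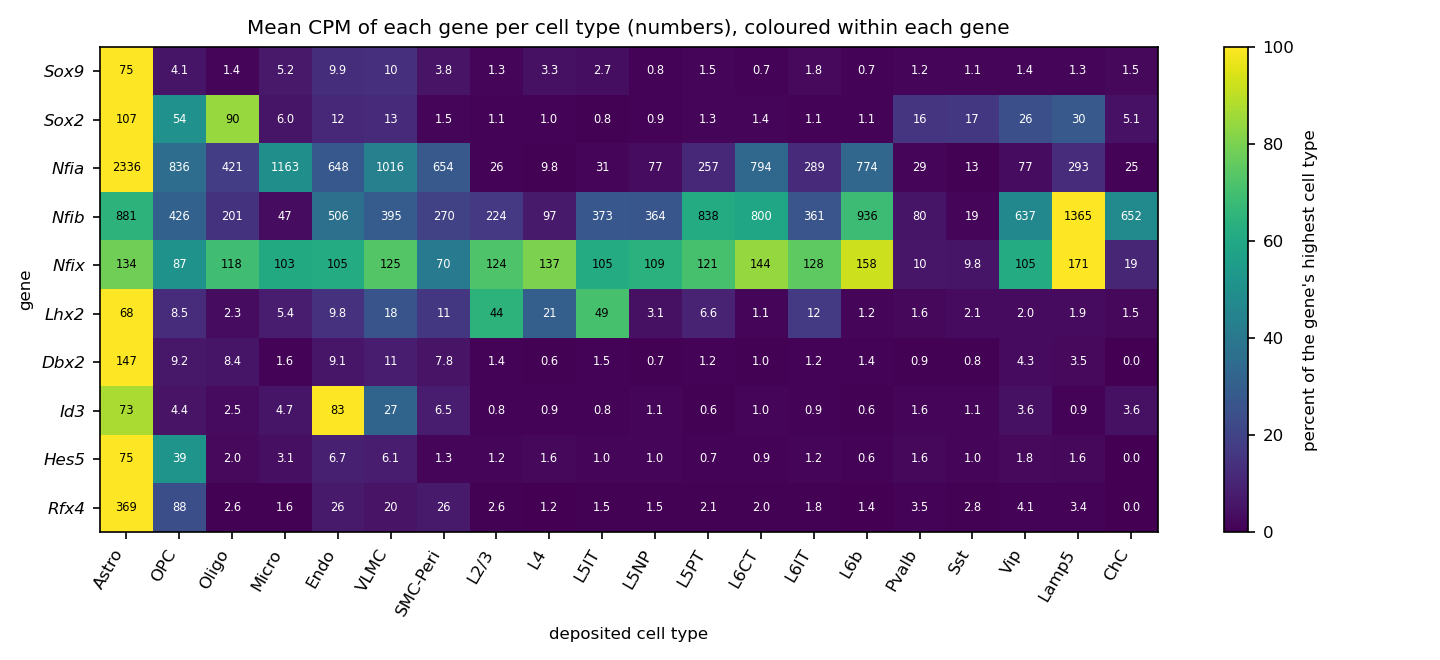
Heat map of the 10 genes (rows) by the 20 deposited cell types (columns), with the mean CPM over libraries printed in each cell and colour giving the percent of the gene's highest cell type. Sox9, Dbx2 and Rfx4 stand apart in astrocytes, while Nfib and Nfix have their highest means in Lamp5 neurons, at 1365 and 171 CPM.

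The other members were shared with other classes. Sox2, a factor of stem cells and glia, was at 107 ± 23.0 CPM in astrocytes and at 89.9 ± 6.92 in oligodendrocytes, with overlapping libraries, and at 54.0 ± 4.94 in OPCs. Interneurons held it as well, at 29.9 in Lamp5, 26.0 in Vip, 17.4 in Sst and 16.3 in Pvalb, each overlapping the next, while excitatory neurons were at 1.11. Id3, an inhibitor of basic helix-loop-helix factors, was at 83.5 ± 12.3 in endothelial cells (n = 7) and 72.7 ± 14.1 in astrocytes, which overlapped. Lhx2, a LIM homeodomain factor, followed its astrocyte level of 68.3 ± 5.69 with 48.6 ± 5.36 in L5IT and 44.2 ± 9.32 in L2/3 neurons, and fell to 1.12 in L6CT neurons. L4 neurons stood between, at 20.8 CPM.

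The 3 nuclear factor I genes differed among themselves. Nfia was at 2336 ± 273 CPM in astrocytes, 1163 ± 115 in microglia (n = 5), 836 ± 37.8 in OPCs and 794 ± 80.5 in L6CT neurons, and at 9.76 in L4 neurons. Nfib was highest in Lamp5 interneurons at 1365 ± 65.5, followed by L6b neurons at 936 ± 20.0 and astrocytes at 881 ± 53.6, the last pair overlapping, with 18.8 in Sst interneurons. Nfix was at 171 ± 28.0 in Lamp5, 158 ± 28.9 in L6b, 144 ± 28.7 in L6CT, 137 in L4 and 134 ± 12.8 in astrocytes. Each of these Nfix neighbours overlapped the next, and the gene was low in Pvalb (10.4) and Sst (9.78) interneurons.

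Because astrocytes were few, a gene highest there can still be transcribed mostly elsewhere. Astrocytes were 9.26% of nuclei and 3.37% of UMIs on average over libraries. They held 80.3% of all Rfx4 UMIs, 77.2% of Dbx2, 66.9% of Id3, 60.3% of Hes5 and 58.4% of Sox9, but 36.8% of Sox2, 28.8% of Nfia, 10.4% of Lhx2, 8.29% of Nfib and 3.76% of Nfix. Excitatory neurons held 88.0% of Nfix UMIs, 88.1% of Lhx2, 80.0% of Nfib and 58.0% of Nfia over all libraries. Their mean level was near that of all nuclei for Nfix (130 against 121 CPM), Lhx2 (24.7 against 22.9) and Nfib (355 against 363). For Nfia it was lower (192 against 272). These shares therefore mainly follow how many UMIs the class held. For Lhx2 and Nfib the astrocyte level (68.3 and 881 CPM) was above that of all nuclei, while the astrocyte share of UMIs was low. For Nfix the astrocyte level (134 CPM) was near that of all nuclei, and its 3.76% was near the 3.37% of all UMIs.

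**Figure D2:**
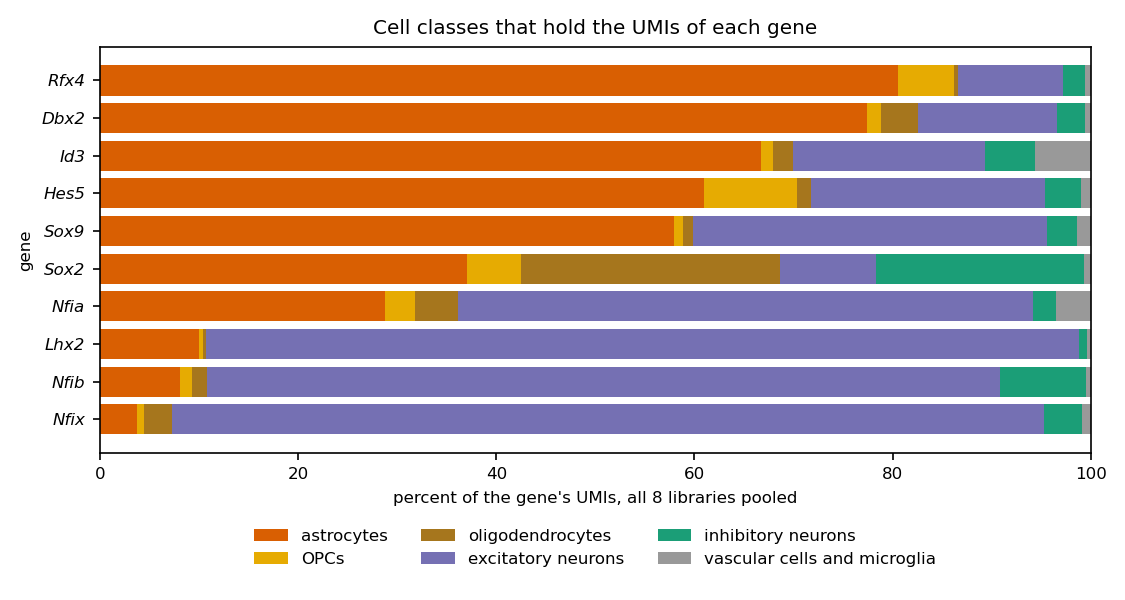
Stacked horizontal bars from 0 to 100 percent, 1 per gene, of the UMIs held by each class of cells with all 8 libraries pooled. Astrocytes take most of Rfx4, Dbx2, Id3, Hes5 and Sox9, and excitatory neurons most of Nfia, Nfib, Nfix and Lhx2.

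In single astrocyte nuclei the members were not found equally often, which follows their counts. With each nucleus thinned to 2000 UMIs, a Nfia UMI was found in 97.9% of astrocyte nuclei, Nfib in 80.7%, Rfx4 in 50.0%, Dbx2 in 24.1% and Nfix in 22.8%. The other 5 members, Sox2, Sox9, Id3, Hes5 and Lhx2, were found in 12.2% to 18.9%. At the same depth Sox9 was found in 0.276% of L2/3 nuclei against 13.8% of astrocyte nuclei, and in all UMIs counted in 3.05% and 36.8%. The mean number of members found per thinned nucleus was 3.24 to 3.62 across libraries in astrocytes, 1.82 to 1.92 in OPCs and 0.591 to 0.766 in L2/3 neurons.

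Genes with the most similar profile over the 20 cell types, by Pearson's r of log2 CPM among 13626 genes, were Ppp1r3c for Sox9 (0.956), Gm10561 for Dbx2 (0.957), Slco1c1 for Id3 (0.976), AW047730 for Hes5 (0.967) and Emx2os for Rfx4 (0.961). For Lhx2 they were Pou3f2 (0.858) and Rorb (0.856), for Sox2 Tbc1d7 (0.897), for Nfib Cdh24 (0.729) and for Nfix Cacna2d1 (0.803). Nfia was closest to E130114P18Rik (0.877), the gene it overlaps on the opposite strand. The points are 20 types of the same libraries, and the coefficients are descriptions.

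The first comparison asked what the loss of astrocyte GR under normal light did to these factors in astrocytes. Hes5, the Notch target, rose 1.42-fold and was the only member of 10 to pass (adjusted p = 0.010, edgeR likelihood ratio test). Its level was 52.2 and 58.9 CPM in the NR GR-Con male and female and 85.9 and 79.2 in the NR GR-KO male and female, so that both GR-KO libraries lay above both controls. The log2 fold change was 0.51 (SE 0.15), with adjusted p = 0.030 in edgeR's quasi-likelihood test and 0.034 in DESeq2. Leaving out a library here leaves 1 in its group, which is then assumed to vary like the other group, and this holds for every such fit of 2 libraries against 2. The value ranged from 0.41 to 0.61 when each library was left out in turn, and the call was lost without the NR GR-Con male (0.41, adjusted p = 0.35, edgeR) and without the NR GR-KO male (0.46, adjusted p = 0.20, edgeR). Among all 14493 genes tested, 7.11% were called, so that 1 called member of 10 is near the background. The share of thinned nuclei with a Hes5 UMI was 8.86% and 10.2% in NR GR-Con and 14.8% and 14.4% in NR GR-KO.

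The other 9 members did not pass in NR. Sox2 was at 83.3 and 82.9 CPM in NR GR-Con and 110.2 and 104 in NR GR-KO, groups that did not overlap (log2 fold change 0.30, SE 0.14, adjusted p = 0.22, edgeR). With a sex term in edgeR its adjusted p was 0.018, in a fit that called 14.1% of all genes tested. Id3 was at 53.8 and 58.0 against 77.1 and 64.1 (0.27, SE 0.15, adjusted p = 0.40, edgeR), again without overlap. Together with Hes5, 3 of 10 members had both GR-KO libraries above both controls, against 31.3% of all genes tested, and Nfia and Lhx2 had both below, against 16.1%. For Sox9, at 69.7 and 64.5 against 81.7 and 69.1, the difference was 0.10 with a 95% interval of -0.19 to 0.39. Nfia, the most abundant of the nuclear factor I genes in astrocytes, was at 2175 and 2214 against 2107 and 2147 CPM (-0.11, SE 0.16), and Rfx4 at 316 and 364 against 348 and 365 (0.00, SE 0.16). Nfib (-0.10), Nfix (-0.11), Lhx2 (-0.17) and Dbx2 (0.09) had log2 fold changes whose 95% intervals included 0.

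**Figure D3:**
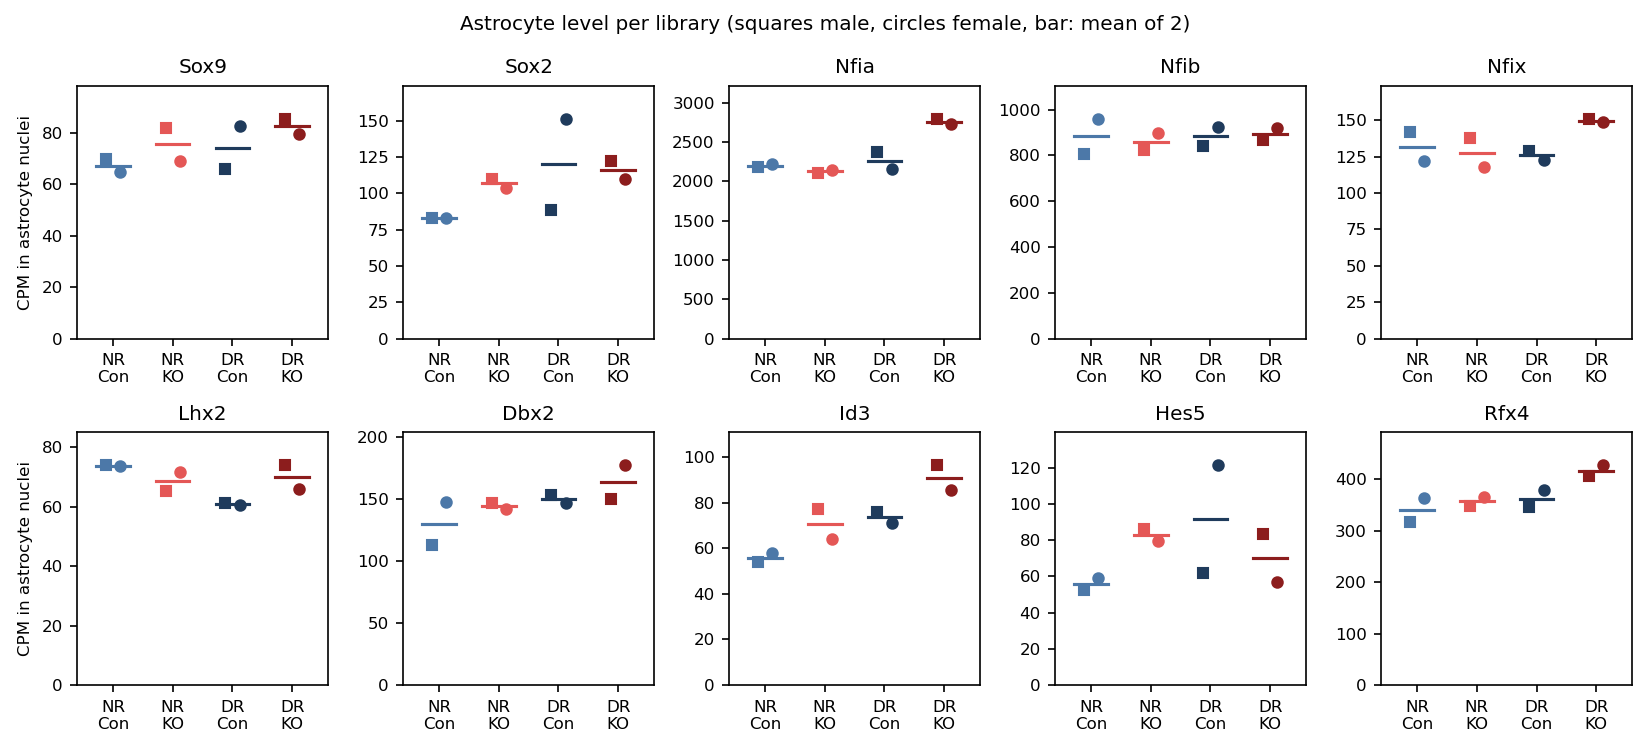
CPM of the 10 members in astrocytes by group, with squares for male and circles for female libraries and a horizontal bar at the mean of 2. The GR-KO libraries lie above the GR-Con libraries for Hes5 in NR, and the DR GR-Con female stands above the other libraries for Hes5 and Sox2.

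Other genes moved with this comparison. Of 10 neuron markers, 9 were higher in both NR GR-KO than in both NR GR-Con astrocyte sums, with their summed level at 464 and 381 CPM in GR-Con and 645 and 659 in GR-KO, and none was at 0. The 3 OPC markers summed to 30.7 and 32.4 CPM in GR-Con and 76.0 and 96.1 in GR-KO. Most of this was Vcan, a matrix gene that immature astrocytes also express and that the paper lists as GR-repressed. Of the others, Pdgfra was at 1.92 and 2.39 against 2.96 and 3.97 CPM, Cspg4 overlapped and none was at 0. The 4 oligodendrocyte markers summed to 87.5 and 74.5 CPM in GR-Con and 131 and 107 in GR-KO, with 3 of 4 higher in both GR-KO libraries and none at 0; Sox2 is high in that type. Hes5 was at 1.17 CPM in excitatory neurons. With library sizes computed without neuron-enriched genes its log2 fold change was 0.53 (adjusted p = 0.0073, edgeR). That setting rescales the sums and leaves neuron transcripts in them. The NR GR-KO astrocytes were also deeper, with medians of 8662 and 12123.5 UMIs against 6267 and 5586.5. The part of neuron, OPC and oligodendrocyte transcripts and of depth in the Hes5 and Sox2 values was not tested.

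Relatives and pathway genes of the members, in lists drawn up with earlier results of these data known, were read in the same fits. Of 18 tested paralogues of the members, 0 rose and 1 fell in NR: Hey2, a Notch-responsive relative of Hes5, at -0.62 (SE 0.21, adjusted p = 0.043, edgeR; 0.10 by the quasi-likelihood test). None of the Notch and BMP pathway genes passed in the NR or DR genotype comparison. Among 16 other astrocyte transcription factors, Klf15, a known glucocorticoid-induced factor, was the only one to pass in NR and fell by 0.91 on the log2 scale (SE 0.15, adjusted p = 8.4e-08, edgeR). The counts of paralogues and other factors called (5.56% and 6.25%) are near the 7.11% of all genes called in NR. Of 18 astrocyte identity genes, 4 rose and 5 fell, or 50.0%. Fabp7 (1.49) and Hopx (1.26), which are high in radial glia and immature astrocytes, rose with Aqp4 (0.69) and Gfap (0.56; adjusted p = 0.054 by edgeR's quasi-likelihood test), while Aldoc (-0.89), Aldh1l1 (-0.64), Ndrg2 (-0.59), Atp1b2 (-0.50) and Fgfr3 (-0.49) fell. The median log2 fold change was 0.045 over the 10 members and -0.14 over the identity genes, against a median of all genes between -0.0104 and 0.0019 in the 7 comparisons.

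In the dark the genotype comparison gave no call among the members. With 0.736% of genes called, 0 of 10 members passed in edgeR, in the quasi-likelihood test or in DESeq2, and 0 had an unadjusted p under 0.05. Hes5 was at 61.7 and 121 CPM in the DR GR-Con male and female and at 83.1 and 56.9 in DR GR-KO, with the female control highest and the groups overlapping (-0.36, SE 0.35). Its value turned on 1 library: without the DR GR-Con female it was 0.17, and without the DR GR-Con male it was -0.75 (adjusted p = 4.9e-07, edgeR), with the spread taken from the 2 GR-KO libraries alone. That female is the library with few microglia and vascular nuclei, and Sox2 was also highest there at 151 CPM against 88.7 in the male. Without the DR GR-Con male, 4 members were called (Sox2, Nfix, Id3 and Hes5), and so were 17.1% of all genes in that fit. Nfia (0.31, SE 0.20), Id3 (0.32, SE 0.20) and Nfix (0.27, SE 0.18) had positive values, as did 8 of the 10 members, and Sox2 was at -0.02 (SE 0.28). Rfx4 (0.23), Lhx2 (0.22), Sox9 (0.18), Dbx2 (0.15) and Nfib (0.04) made up the rest, each with an SE between 0.19 and 0.21. Both GR-KO libraries lay above both controls for 5 of 10 members (Nfia, Nfix, Lhx2, Id3 and Rfx4), against 16.3% of all genes tested.

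**Figure D4:**
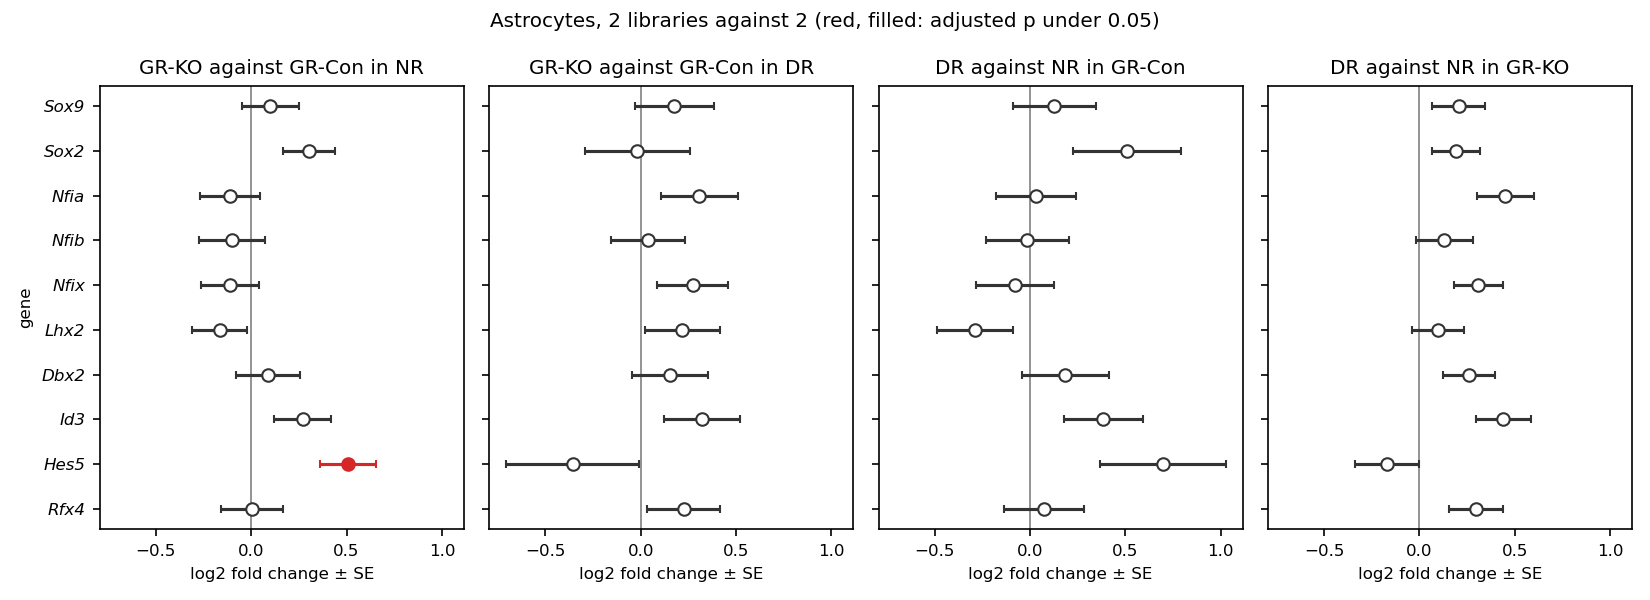
Log2 fold change of each gene in astrocytes, with bars of 1 SE, in the 4 comparisons of 2 libraries against 2. Red filled points passed at an adjusted p under 0.05, and the 1 such point is Hes5 in NR at 0.51.

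A direct test of whether the genotype difference differed between NR and DR called 0 of 10 members in edgeR, the quasi-likelihood test or DESeq2. In the same order these tests called 0.386%, 0.00678% and 0.319% of all genes. In edgeR 1 member, Hes5, had an unadjusted p under 0.05, with a difference of 0.86 (SE 0.41, unadjusted p = 0.037, adjusted p = 0.92, edgeR). For Nfia the difference was -0.42 (SE 0.23), from -0.11 under NR and 0.31 under DR, and the other 8 members lay between -0.39 (Nfix and Lhx2) and 0.31 (Sox2). With rearing as a term, over all 8 libraries, 4.79% of genes but 0 of 10 members were called for genotype, by any of the 3 tests, and 1 had an unadjusted p under 0.05. Id3 came closest at 0.29 (SE 0.11, adjusted p = 0.13, edgeR), and the other 9 lay between -0.03 (Nfib) and 0.14 (Sox2 and Sox9). In that fit its relatives Id4 and Id2 fell, both by 0.39 on the log2 scale (adjusted p = 0.0079 and 0.011, edgeR). They were the 2 of 18 tested paralogues called there (11.1%), beside 4.79% of all genes. NR genotype and GR-Con rearing share the NR GR-Con libraries, and likewise for the other pairs of comparisons, which are therefore not independent.

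Dark rearing was compared with normal light to ask which members respond to visual experience. In GR-Con astrocytes 0 of 10 members passed by edgeR, quasi-likelihood test or DESeq2. In the same order these tests called 0.147%, 0% and 0.119% of all genes. In edgeR 1 member had an unadjusted p under 0.05. That was Hes5 at 0.70 (SE 0.33), which rests on the DR GR-Con female: without it the value was 0.16. Id3 stood at 53.8 and 58.0 CPM in NR and 76.0 and 71.2 in DR, with no overlap (0.38, SE 0.21). Sox2 (0.51, SE 0.28) and Hes5 also had both DR libraries above both NR libraries, which makes 3 of 10 members against 16.7% of all genes tested, and Lhx2 (-0.29, SE 0.20) had both below, against 15.9%. Sox2 also turned on the DR GR-Con female, with 0.10 without it and 0.83 without the DR GR-Con male. The other values were 0.19 for Dbx2, 0.13 for Sox9, 0.07 for Rfx4, 0.03 for Nfia, -0.01 for Nfib and -0.08 for Nfix, with overlap. In GR-KO astrocytes 2.85% of genes were called and 0 of 10 members, but 4 had an unadjusted p under 0.05, and the quasi-likelihood test and DESeq2 each called 1. That member was Nfia, at 2107 and 2147 CPM in NR and 2793 and 2726 in DR (0.45, SE 0.15, adjusted p = 0.074 in edgeR's likelihood ratio test, 0.017 in its quasi-likelihood test and 0.00017 in DESeq2). Id3 had 77.1 and 64.1 against 96.3 and 85.4 CPM (0.44, SE 0.14, adjusted p = 0.060, edgeR). With the sex term Nfia and Id3 passed (adjusted p = 0.00045 and 0.0049, edgeR), in a fit that called 5.02% of all genes tested. Rfx4, at 348 and 365 against 405 and 426, Nfix, at 138 and 118 against 151 and 149, and Dbx2, at 147 and 142 against 150.1 and 177, did not overlap but did not pass. Sox9 (0.21), Sox2 (0.19), Nfib (0.13), Lhx2 (0.10) and Hes5 (-0.17) overlapped between NR and DR. Both DR libraries were thus above both NR libraries for 5 of 10 members, against 14.2% of all genes tested, and both below for 32.9% of genes but for 0 members. Other values of the astrocyte sums changed with this comparison: the 10 neuron markers summed to 645 and 659 CPM in NR GR-KO and 400.2 and 407 in DR GR-KO, the 4 oligodendrocyte markers to 131 and 107 against 75.2 and 65.3, and the 3 OPC markers, mostly Vcan, to 76.0 and 96.1 against 130.0 and 123, while median UMIs per nucleus were 8662 and 12123.5 against 4889 and 5227. Among the OPC markers only Vcan rose. Pdgfra was at 2.96 and 3.97 CPM in NR GR-KO and 1.83 and 2.23 in DR GR-KO, and Cspg4 overlapped. The part of all these markers and of depth in the Nfia and Id3 values was not tested. Bmp7, a BMP ligand of the pathway list, fell by 0.79 on the log2 scale in this comparison (adjusted p = 0.00042, edgeR). It was the 1 of 23 tested genes of that list called (4.35%), beside 2.85% of all genes.

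Over both genotypes Id3 was higher in the dark. All 4 DR libraries lay above the NR library of their own sex and genotype, although the groups overlapped, with the NR GR-KO male (77.1 CPM) above both DR GR-Con libraries (76.0 and 71.2), and the log2 fold change was 0.42 (SE 0.11), or 1.33-fold, with adjusted p = 0.029 in edgeR and 0.030 in DESeq2. The quasi-likelihood test gave adjusted p = 0.13. Values ran from 0.36 to 0.45 when 1 of the 8 libraries was left out, and the call was kept in 1 of those 8 fits, the one without the DR GR-Con female. Endothelial cells also hold Id3, and their 3 markers summed in astrocytes to 2.09 to 7.26 CPM in NR and 2.56 to 4.19 in DR, none of them at 0. The sum of the 3 OPC markers, mostly Vcan, was higher in DR within each genotype. It was at 30.7 and 32.4 against 53.0 and 54.3 CPM in GR-Con, with the GR-KO values given above. Vcan alone rose. In GR-Con Cspg4 was at 3.15 and 3.29 CPM in NR and 2.41 and 1.62 in DR, and Pdgfra overlapped. The 4 oligodendrocyte markers summed lower, at 87.5 and 74.5 against 58.0 and 43.4 in GR-Con. The part of these endothelial, OPC and oligodendrocyte markers in the Id3 value was not tested. Id3 was the only member called of 10, against 0.935% of all genes, and 9 of 10 members had positive values. Sox2 had 0.35 (SE 0.16, adjusted p = 0.41, edgeR), and the other 8 lay between -0.09 (Lhx2) and 0.27 (Hes5).

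Outside astrocytes the same genes were tested wherever a cell type had at least 10 nuclei in each library. No genotype comparison called any of them, by edgeR's likelihood ratio or quasi-likelihood test or by DESeq2. A sex term gave 6 calls in NR, for which the share of all gene tests is not given here. In NR, 0 of 124 pairs of member and cell type were called by edgeR and 15 had an unadjusted p under 0.05, with 0.37% of all gene tests called. In DR it was 0 of 105 pairs and 8, with 0.496%, and over both rearings 0 of 118 and 4, with 0.0803%. The interaction gave 0 of 118 and 12, with 0.166%. Lhx2 had a positive NR value in 12 of 12 other types (median 0.40), but in 8 of 13 (median 0.01) without the NR GR-KO male and in 11 of 13 (median 0.46) without the female. Hes5 was positive in 10 of 10 other types (median 0.28) and in 8 of 10 without either NR GR-KO library (medians 0.42 and 0.39). Id3 was positive in 10 of 12 (median 0.50), in 7 of 11 (median 0.18) without the male and in 11 of 11 (median 0.65) without the female. Of the other members, Sox9 was positive in 5 of 8 types, Sox2 in 9 of 11 and Dbx2 in 7 of 10. Nfib was positive in 8 of 16, Nfia in 5 of 16, Rfx4 in 4 of 13 and Nfix in 3 of 16. All types come from the same NR libraries, and some levels were low, such as Hes5 at 1.17 CPM in excitatory neurons. The share of all genes with such signs is not given here, so these counts are not read as a result about the members.

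Rearing gave calls in neurons. In GR-Con, 3 of 111 pairs were called, with 2.4% of all gene tests: Nfia in L5IT, Dbx2 in L2/3 and Nfib in L4 neurons, all higher in the dark. In GR-KO, 7 of 118 pairs were called, all higher in DR, with 3.71% of all gene tests, and over both genotypes 5 of 118, with 5.55%. Whether these shares of pairs differ from those of all genes was not tested. Nfix accounted for 5 of the 7 calls in GR-KO.

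Nfia in L5IT neurons had the largest fold. It was at 10.4 and 7.52 CPM in NR GR-Con and at 52.6 and 37.1 in DR GR-Con, a log2 fold change of 2.33 (SE 0.25, adjusted p = 1.3e-17, edgeR; 0.0028 by the quasi-likelihood test). The call held when any of the 4 libraries was left out. In GR-KO the libraries split: the NR GR-KO male was at 46.0 CPM, in the range of the DR GR-KO libraries (50.2 and 33.2), and the NR GR-KO female was at 10.8, near the controls. The DR against NR value in GR-KO was accordingly 0.57 (adjusted p = 0.87, edgeR), and 1.93 (adjusted p = 5.8e-09, edgeR) without the NR GR-KO male, a fit whose spread comes from the 2 DR libraries alone. The NR genotype value of 1.67 (SE 0.59, adjusted p = 0.35, edgeR) was 2.35 without the NR GR-KO female and 0.30 without the male. One of the 3 VLMC markers moved with it. Dcn was at 0.118 and 0.358 CPM in L5IT sums of NR GR-Con and at 7.35 and 0 in NR GR-KO. In the dark it was at 4.94 and 4.92 in GR-Con and 4.17 and 4.75 in GR-KO. Col1a1 and Col1a2 were at or below 0.889 and 0.235 CPM in every library. In VLMCs themselves Dcn was at 153 CPM, Col1a2 at 231 and Col1a1 at 71.0. In the NR GR-KO male, 38 of 217 L5IT nuclei with a Nfia UMI had a Dcn UMI (17.5%), against 8 of 336 without one (2.38%). The DR libraries had 11.5% to 13.4% against 0.763% to 1.69%, the NR GR-Con female 2 of 35 (5.71%) against 1 of 389 (0.257%), and the NR GR-Con male and NR GR-KO female 0 of 60 and 0 of 69 nuclei with a Nfia UMI. In most libraries nuclei with a Nfia UMI were also deeper, with median UMIs of 31449 against 27435 in the NR GR-KO male and 26171 against 22465 in the DR GR-Con male. They were not deeper in the NR GR-KO female (39012 against 39574.5) or the NR GR-Con female (19338 against 19343). The part of depth, of VLMC transcripts and of the nuclei with Dcn in the result was not tested.

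Dbx2 in L2/3 neurons followed the same libraries at a low level. It was at 0.465 and 0.393 CPM in NR GR-Con, 2.17 and 0.665 in NR GR-KO, 2.32 and 1.83 in DR GR-Con and 2.05 and 1.39 in DR GR-KO, from 20 to 162 UMIs per library. The difference in GR-Con was 2.22 (SE 0.33, adjusted p = 2.4e-09, edgeR, and 0.026 by the quasi-likelihood test), and it ran from 2.016 to 2.395 when 1 library was left out. In GR-KO it was 0.33 (adjusted p = 0.80, edgeR) and over both genotypes 1.25 (adjusted p = 0.060, edgeR), and neither was called. In astrocytes the lowest library was at 113 CPM. The 4 astrocyte markers summed in L2/3 to 17.1 and 17.4 CPM in NR GR-Con against 31.2 and 40.5 in DR GR-Con. In GR-KO they summed to 26.4 and 21.8 in NR against 36.9 and 20.1 in DR. Their part was not tested, and at this low level no change of Dbx2 within neurons is read from the call. Lhx2 in L2/3 neurons was at 34.1 and 37.5 CPM in NR GR-Con and 52.6 and 45.2 in DR GR-Con, and at 51.0 and 30.7 in NR GR-KO with the male again at the level of the dark libraries (56.7 and 45.6 in DR GR-KO). Neither rearing comparison called Lhx2 there, at 0.41 in GR-Con and 0.38 in GR-KO (adjusted p = 0.14 and 0.45, edgeR).

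**Figure D5:**
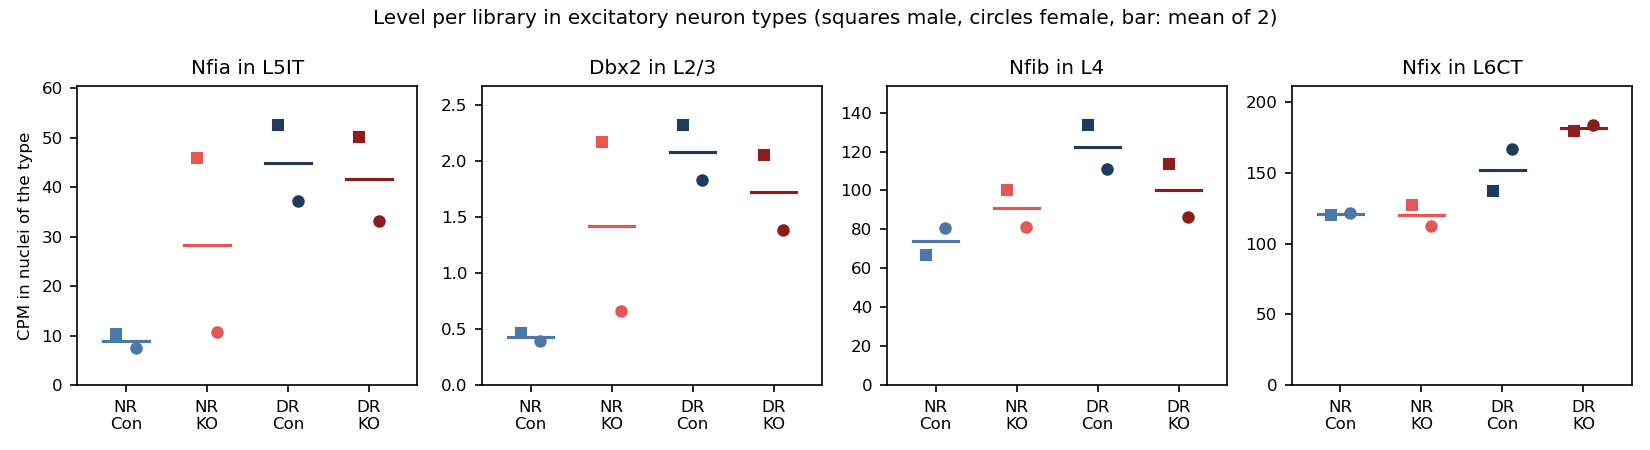
CPM of Nfia in L5IT, Dbx2 in L2/3, Nfib in L4 and Nfix in L6CT neurons by group, with squares for male and circles for female libraries and a bar at the mean of 2. The NR GR-KO male lies with the DR libraries for Nfia in L5IT and Dbx2 in L2/3 neurons, and both DR GR-KO libraries are the highest for Nfix in L6CT neurons, at 179 and 184 CPM.

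Nfix was called in 5 neuron types in GR-KO. The libraries of this comparison differed in depth, with median UMIs per nucleus of 22827.5 and 29223 in NR GR-KO and 14928.5 and 14861 in DR GR-KO, whose part was not tested. In L6CT neurons it was at 127 and 112 CPM in NR GR-KO and 179 and 184 in DR GR-KO (0.62, SE 0.15, adjusted p = 0.0027, edgeR), and in Lamp5 interneurons at 163 and 142 against 210 and 218 (0.54, SE 0.15, adjusted p = 0.017, edgeR). L2/3 (0.49), L5IT (0.50) and L6IT neurons (0.52) were also called, with adjusted p = 0.026, 0.028 and 0.028 in edgeR. DESeq2 gave adjusted p = 0.00015 in L2/3, 0.00041 in L6CT, 0.019 in L6IT and 0.030 in L5IT neurons, and did not call Lamp5 (0.076). The quasi-likelihood test called none of the 5 (adjusted p 0.057 to 0.12), and the calls held in 0 to 2 of 4 fits that left out a library. Over both genotypes Nfix in L6CT neurons was at 0.47 (SE 0.11, adjusted p = 0.00053, edgeR; 0.015 by the quasi-likelihood test), and there the call held in 8 of 8 such fits. In GR-Con L6CT neurons it was at 120.5 and 122 CPM in NR and 137 and 167 in DR.

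Nfib in L4 neurons was at 66.8 and 80.9 CPM in NR GR-Con and 134 and 111 in DR GR-Con (0.74, SE 0.18, adjusted p = 0.0029, edgeR; 0.15 by the quasi-likelihood test), and over both genotypes Nfib also rose in L2/3 neurons (0.35, SE 0.11, adjusted p = 0.021, edgeR; called in 4 of 8 fits without a library, with adjusted p = 0.12 without the DR GR-Con female). Sox9 in L2/3 neurons passed over both genotypes at -0.68 (SE 0.22, adjusted p = 0.017, edgeR; 0.05004 by the quasi-likelihood test, and called in 5 of 8 fits without a library), at 0.663 to 1.92 CPM and 44 to 147 UMIs per library against 74.8 CPM in astrocytes, while the 4 astrocyte markers in these sums were at 17.1 to 26.4 CPM in NR and 20.1 to 40.5 in DR. Rfx4 in Pvalb interneurons had 2.46 and 1.93 CPM in NR GR-KO and 4.36 and 5.19 in DR GR-KO (1.13, SE 0.31, adjusted p = 0.019, edgeR), from 17 to 41 UMIs per library. The quasi-likelihood test gave adjusted p = 0.11 for it, and the call held in 1 of 4 fits without a library. The 4 astrocyte markers in these Pvalb sums were at 19.3 and 22.8 CPM in NR GR-KO and 14.5 and 25.2 in DR GR-KO, and Rfx4 in astrocytes was at 369. Over both genotypes the other called pairs were Rfx4 in Pvalb interneurons (0.83, SE 0.24, adjusted p = 0.021, edgeR; 0.083 by the quasi-likelihood test) and Nfib in L4 neurons (0.47, SE 0.16, adjusted p = 0.040, edgeR; 0.083 by the quasi-likelihood test), each called in 2 of 8 fits without a library. At such low levels no change of Sox9 or Rfx4 within neurons is read from these calls, as for Dbx2 in L2/3 neurons. Nfia in VLMCs was at 636 and 502 CPM in NR GR-KO and 1475 and 1489 in DR GR-KO (1.14, SE 0.32, adjusted p = 0.0041, edgeR; 0.020 by the quasi-likelihood test; called in 1 of 4 fits without a library), beside astrocyte markers at 863 and 926 against 2079 and 2173 CPM and general neuron markers at 2906 and 3892 against 446 and 848. The part of these other transcripts in the VLMC value was not tested.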

How the data were processed

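V1 nuclei of 8 libraries (2 mice per group) were profiled with the 10X 3′ kit. Per the submitters' notes and the study's methods, the authors aligned reads with Cell Ranger 8.0.1 to mm10 with a custom annotation, and used Seurat 5.3.0, a minimum of 500 gene counts, DoubletFinder and Louvain clustering to name cell types. The deposited matrix holds UMI counts, without normalization. The deposited cell table gives the percent of mitochondrial UMIs, which was not used further, and its column sums of counts equalled the matrix for 102330 of 102330 nuclei. Library names give rearing, vector and sex but no replicate number, so libraries are named by group and sex.

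UMI counts were summed per library and cell type. Types with at least 10 nuclei in every library of a fit were tested with edgeR 4.0.16 in R 4.3.3 (filterByExpr, TMM, two-sided likelihood ratio test as in the study's methods), with Benjamini-Hochberg adjustment over all genes of the type and calls at an adjusted p under 0.05. The SE is the log2 fold change over the root of its likelihood ratio statistic. All 10 genes passed the filter in astrocytes. Alternatives were the edgeR quasi-likelihood test, DESeq2 1.42.0, its size factors, no filter, a sex term, library sizes without genes enriched at least 4-fold in excitatory neurons, and leaving out each library. Scripts were tested on simulated data, where the likelihood ratio test and the quasi-likelihood test made more false calls than the threshold allows in both designs tried, and DESeq2 in the one over all 8 libraries. Thinning drew 2000 UMIs per nucleus and left out shallower nuclei. Promoters came from RefSeq (GRCm38.p6) by symbol, for 8 of 10 members. With 2 mice per group, p-values measure the spread between these libraries, which may be technical in part.

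The members, the lists and the rule that all 10 members are accounted for in each astrocyte comparison were chosen with earlier results of these data known. List genes are named where they were called in a genotype comparison or bear on a pathway described.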

Additional observations from a re-analysis of the deposited data

How the results depend on the processing

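No paired analysis was possible because the deposited library names carry no replicate numbers for a replicate block; the sex term, which matches the 1 male and 1 female of each group, was fitted in its place and changed calls. Counts of called members in astrocytes were within 1.5 times the main count under the DESeq2 size factors and the library size without neuron-enriched genes. With the sex term, 2 members were called in the NR genotype comparison, beside 14.1% of all genes tested, and 2 for rearing in GR-KO, beside 5.02%. For the latter, DESeq2 and the quasi-likelihood test called 1 each, beside 1.57% and 1.79% of all genes. For DR against NR over both genotypes, no filter on low counts and the quasi-likelihood test each called 0, beside 0.492% and 0.0203%. Leaving out each library gave 0 to 1 calls (genotype in NR), 0 to 4 (genotype in DR), 0 to 2 (rearing in GR-Con), 0 to 2 (rearing in GR-KO), 0 to 2 (interaction), 0 to 1 (genotype over both rearings) and 0 to 1 (rearing over both genotypes). In the other cell types the sex term called 6 pairs for genotype in NR, 6 for rearing in GR-Con, 2 for the interaction and 10 for rearing over both genotypes, where DESeq2 called 8 and the quasi-likelihood test 2; for rearing in GR-KO the quasi-likelihood test called 1. Leaving out each library gave 0 to 8, 0 to 4, 2 to 10, 0 to 17, 0 to 2, 0 to 1 and 2 to 11 pairs in the same order of comparisons; the 17 came without the NR GR-KO male. The cause of these differences was not tested. The shares of all gene tests called in these fits of other cell types are not given here, so the counts are not read as a result about the members. The median over members of the share of astrocyte nuclei with a UMI was 11.1% at 1000 and 36.3% at 4000 UMIs per nucleus, since fewer or more UMIs were drawn.

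Over the single members tried in astrocytes and the pairs called in other types, 468 values under an alternative kept their direction and side of the threshold, 63 lost and 14 gained a call, and 20 changed sign. With the sex term Sox2 for genotype in DR was 0.022, and Nfib for rearing in GR-Con was 0.0001465 with library sizes without neuron-enriched genes. The rest of the 20 changed sign when a library was left out: in the NR genotype comparison Sox9 (-0.013 to 0.20), Nfib (-0.23 to 0.038), Dbx2 (-0.11 to 0.30) and Rfx4 (-0.11 to 0.12); in the DR genotype comparison Sox2 (-0.33 to 0.39), Nfib (-0.019 to 0.11) and Hes5 (-0.75 to 0.17); for rearing in GR-Con Sox9 (-0.017 to 0.26), Nfia (-0.061 to 0.12), Nfib (-0.16 to 0.13), Nfix (-0.17 to 0.0090), Dbx2 (-0.015 to 0.41) and Rfx4 (-0.049 to 0.20); and for rearing in GR-KO Hes5 (-0.43 to 0.064). In the fits over all 8 libraries, leaving out a library also turned Hes5 (-0.059 to 0.37), Lhx2 (-0.041 to 0.094) and Nfib (-0.074 to 0.040) for genotype, Hes5 (-0.035 to 0.45) for rearing, and Sox9 (-0.23 to 0.050), Sox2 (-0.094 to 0.63), Dbx2 (-0.26 to 0.14) and Id3 (-0.18 to 0.054) in the interaction. Members with 381 to 918 astrocyte UMIs per library, such as Hes5, carry more counting error than Nfia with 14823 to 24875.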
